A study of Mus musculus with 16 samples.

Results

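The liver transcriptome of 5 wild-type mice fasted for 24 h was set against that of 4 wild-type mice that were fed, which together gave 9 of the 16 arrays of a study of fasting in PPARβ/δ knockout and wild-type mice. Arrays were assigned by the genotype and the feeding state in their labels, with no use of measured values. All 9 mice were males on the mixed Sv129/C57Bl/6 background of the knockout line and carried no knockout, and each gave 1 array of total liver RNA from a matching position in a lobe. The other 7 arrays came from 4 fed and 3 fasted PPARβ/δ knockout males of the same background. They share the estimate of the spread, and the response of the knockout mice is used only where that of wild-type mice is compared with it. The labels call the arrays biological replicates. The sources used here do not give the age of the mice, their diet, the hour of collection or whether they were littermates.

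Between meals the liver turns from storing fuel to releasing it. Fatty acids arrive from adipose tissue and are oxidised in mitochondria and peroxisomes, in part to ketone bodies, and the nuclear receptor PPARα, which fatty acids activate, drives many genes of these pathways. Falling insulin and rising glucagon and glucocorticoids favour glucose output and restrain the synthesis of fatty acids and cholesterol, which transcription factors of the SREBP family control. PPARβ/δ, encoded by Ppard, is a close relative of PPARα that is expressed in most tissues.

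Values are log2 of the deposited array intensities. Differences are fasted minus fed means on that log2 scale, with its limma standard error after ±, and a difference of 1 is a 2-fold change. A gene is said to have risen or fallen where its Benjamini-Hochberg adjusted p was under 0.05 in limma over 19935 genes. Intensities of different genes depend on their probes and are not compared with each other. Mice are given by their number in the labels, fed mice 1 to 4 and fasted mice 1 to 5.

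Transcripts of other tissues were present in some of the arrays. The mean log2 intensity of 16 genes of skeletal muscle, a list added after these values were seen, was 5.38 in fed mouse 2, 7.46 in fed mouse 4 and 6.03 in knockout fasted mouse 1, against 2.81 to 3.15 in the other arrays. In fed mouse 4 the 12 genes of stratified squamous epithelium, added in the same way, gave 4.07, against 2.28 to 2.50 elsewhere. The 16 measured pancreas genes averaged 4.65 in fasted mouse 5 and 2.97 in fasted mouse 4, against 2.50 to 2.81 elsewhere. The hepatocyte markers, among them Alb, lay between 11.47 and 11.63 in all 9 wild-type arrays, so the tissue label held in each. Of the markers of T and NK cells 17 of 21 lay below the dim limit of log2 2.79 (the 40th percentile of gene means), as did 10 of 12 of B and plasma cells and 14 of 14 of neutrophils. Counts are therefore also given without the 4 arrays fed mouse 2, fed mouse 4, fasted mouse 5 and knockout fasted mouse 1, which leaves 2 fed and 4 fasted wild-type mice. In bulk tissue a smaller number of cells of a type and less RNA per cell cannot be told apart.

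**Figure D1:**
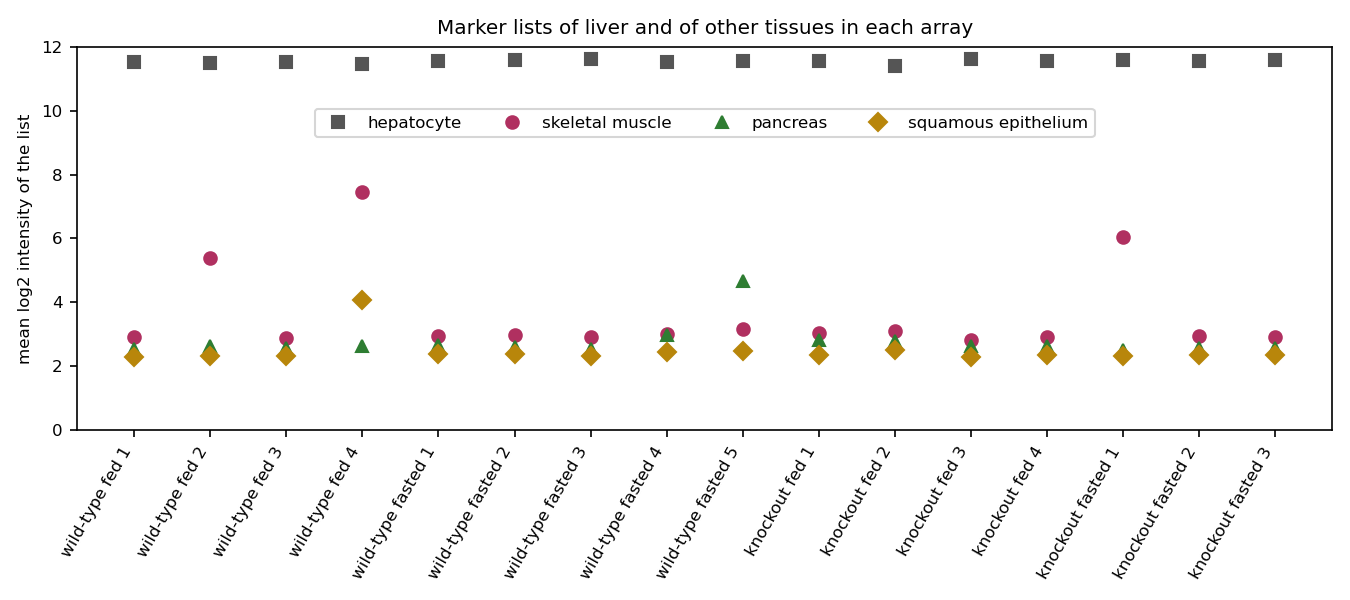
Mean log2 intensity of marker gene lists in each of the 16 arrays, 1 symbol per list. The hepatocyte list stayed between 11.42 and 11.63 in all arrays, whereas the skeletal muscle list reached 5.38 and 7.46 in fed mice 2 and 4 and the pancreas list 4.65 in fasted mouse 5.

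Fasting changed 1838 of 19935 genes, which is 9.22% of those tested. Of these 658 (3.3% of all) rose and 1180 (5.92%) fell, with median differences of 0.51 and -0.50 and a median of 0.025 over all genes. The share of rises among the calls depended on the scaling, at 35.8% as deposited, 46.5% after quantile normalization and 28.2% with each array centred on the common median. Changes of at least 2-fold were found in 102 rises and 115 falls, and of at least 4-fold in 19 rises and 11 falls. In 1503 of the called genes no fasted mouse overlapped a fed mouse, as in 2440 (12.2%) of all genes. Without the 4 arrays 833 genes (4.18%) were called, 291 higher and 542 lower, 777 of which were also called with all arrays. All 1838 genes had the same sign in that fit, which reuses arrays from which they were called. Leaving out fed mouse 3 alone gave 1199 genes, and every other single omission of a wild-type array gave 1454 to 1675. The counts in the pathway lists are to be read against 3.3% called higher and 5.92% called lower among all genes. These shares include dim genes, of which many lists hold few. With dim genes left out of the fit 668 of 11961 genes were called higher and 1264 lower.

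**Figure D2:**
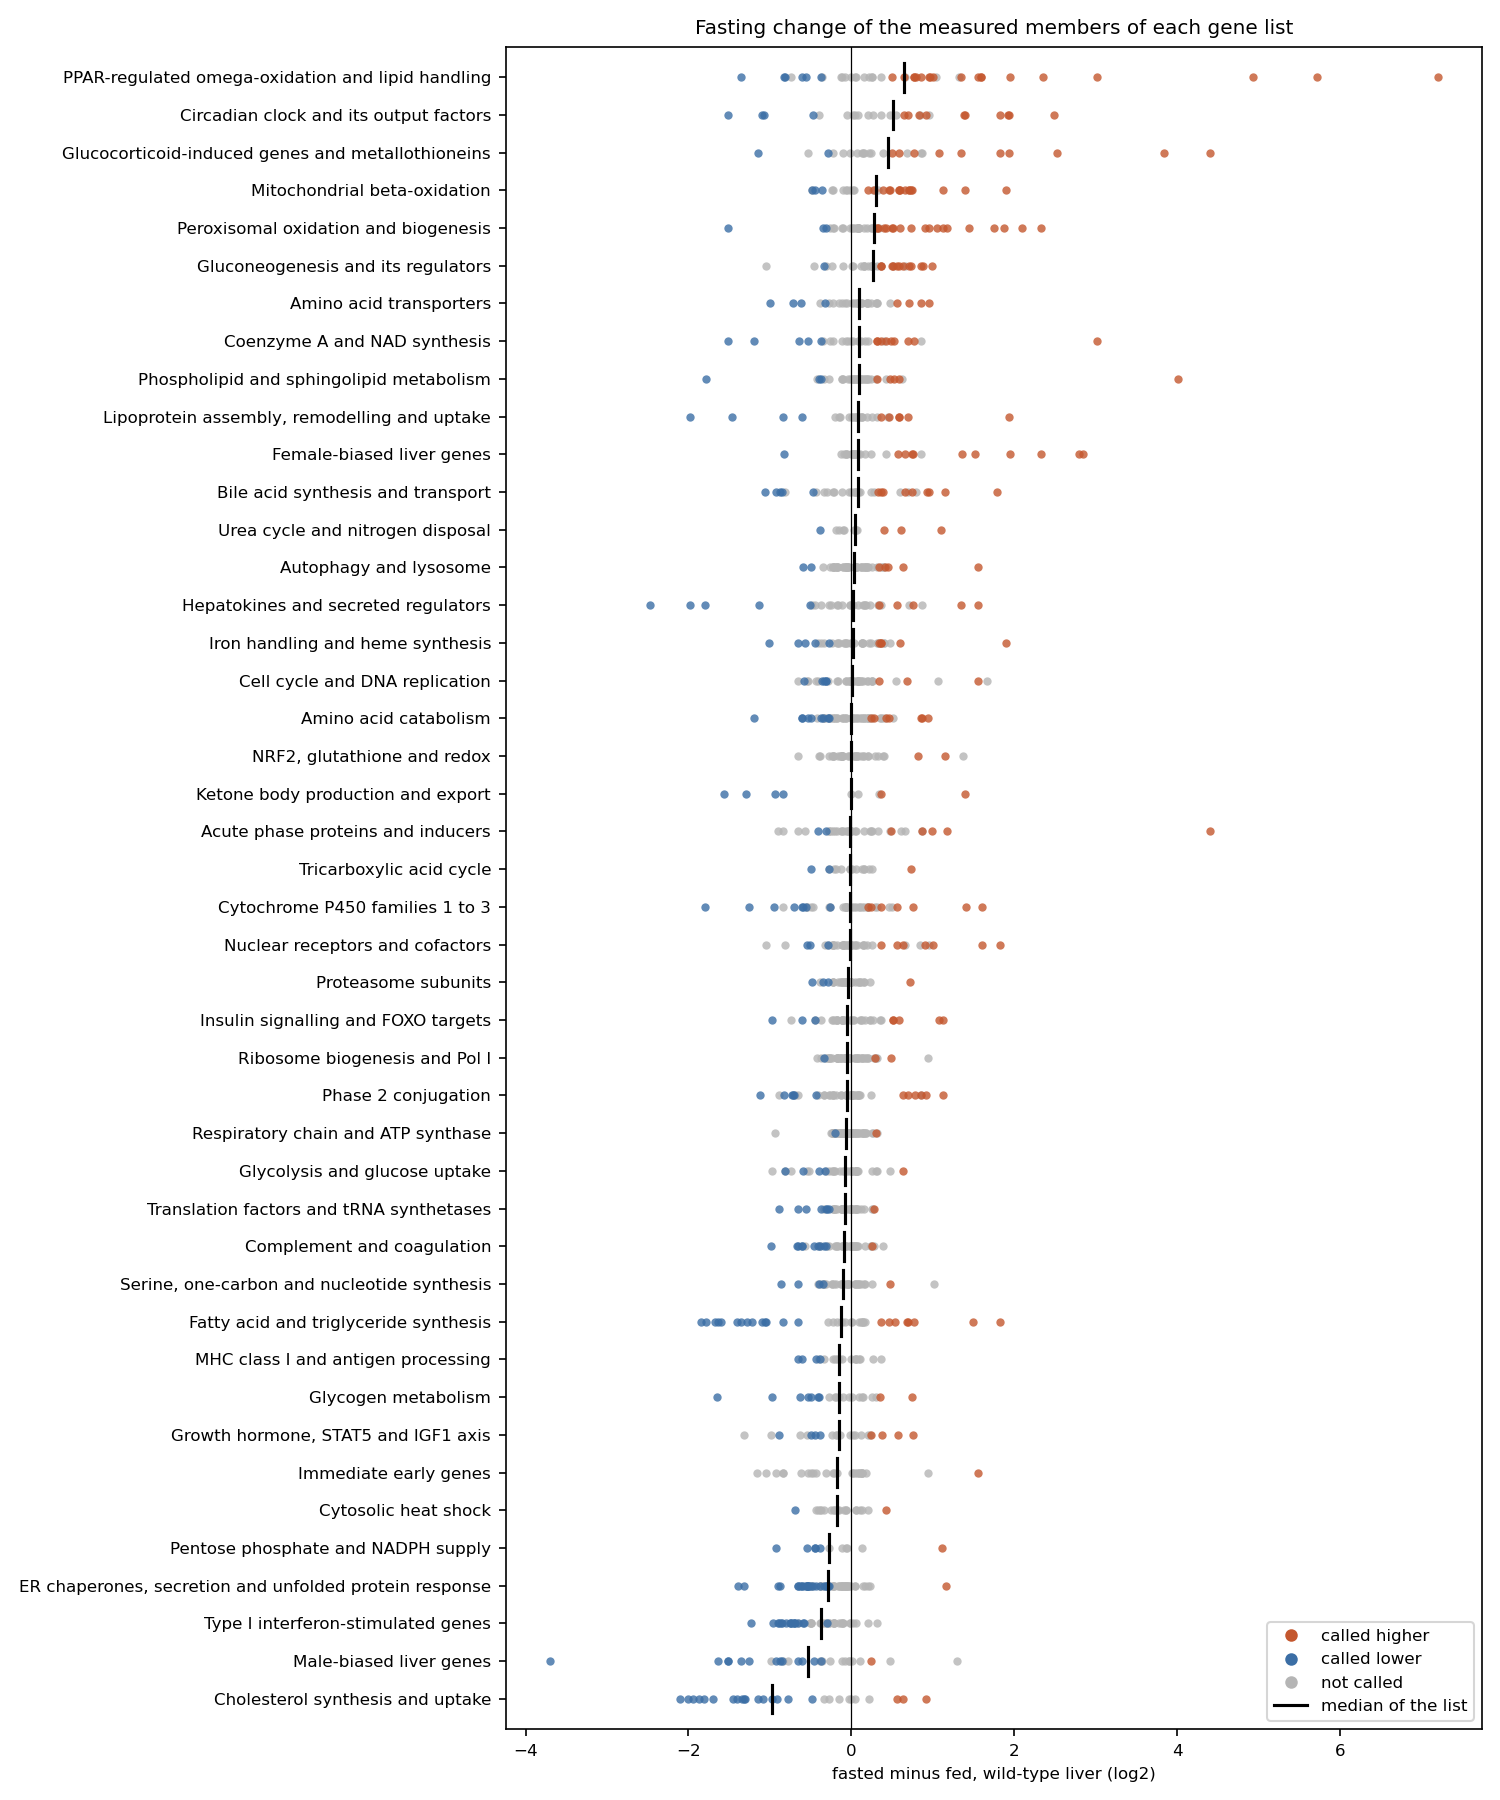
Fasted minus fed difference (log2) of every measured member of the 44 pathway lists, 1 point per gene coloured by its call in limma, with the list median as a black bar and lists sorted by it. The list of PPAR-regulated lipid genes has the highest median, 0.65, and cholesterol synthesis the lowest, -0.97.

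Of the PPAR receptors Ppara rose and Ppard fell. Ppara gave 7.98, 7.43, 8.09 and 7.86 in fed mice and 8.65, 8.66, 8.93, 9.02 and 8.95 in fasted mice. Every fasted mouse was above every fed mouse, and the difference was 1.00 ± 0.17 (limma adjusted p = 0.00125). Ppard gave 4.78, 5.50, 5.31 and 4.83 in fed mice and 4.62, 4.40, 4.54, 4.67 and 4.58 in fasted mice. Fed mice 2 and 3 were the highest, the groups did not overlap, and the difference of -0.54 ± 0.14 (limma adjusted p = 0.025) was not called without fed mouse 2 (-0.41, adjusted p = 0.0918), fed mouse 3 (-0.47, 0.0954) or fasted mouse 2 (-0.50, 0.0572). Nor was it called after quantile normalization (-0.47, adjusted p = 0.0504) or with the replicate number as a block (-0.54, adjusted p = 0.0783). For Pparg, the receptor of fat cell differentiation, the difference was -0.21 ± 0.10 (limma adjusted p = 0.238), with fed mouse 1 highest at 5.06 and the others between 4.34 and 4.76. Ppara and Ppard gave 0.78 and -0.48 without the 4 arrays and were then not called (adjusted p = 0.0699 and 0.165).

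Genes of fatty acid omega-oxidation and lipid handling that PPARs are known to regulate held the largest rises of the whole table. Of 41 measured members 19 rose and 6 fell, with a median over the list of 0.65, and 18 and 3 were called without the 4 arrays. Cyp4a14, a microsomal omega-hydroxylase of fatty acids, gave 5.67, 2.81, 4.2 and 2.81 in fed mice and 11.94, 10.70, 10.70, 11.20 and 10.83 in fasted mice. The difference was 7.20 ± 0.61 (147.0-fold, limma adjusted p = 1.47e-06). Its size is uncertain in both directions. Fed mice 2 and 4 lay close to the dim limit, where the change may be understated. They were also the fed mice with muscle transcripts, and fed mice 1 and 3 alone would give a smaller difference. Its relative Cyp4a10 gave 5.68, 4.12, 5.34 and 4.69 in fed mice and 10.59, 9.58, 9.55, 9.94 and 9.76 in fasted mice. The 5 fasted mice were all at 9.55 or above and the 4 fed mice all at 5.68 or below, a rise of 4.93 ± 0.37 (30.4-fold, limma adjusted p = 6.55e-07). Cyp4a31 rose by 5.72 ± 0.47 (limma adjusted p = 1.09e-06). The Cyp4a genes are close in sequence and may share probe signal, so how far each rose on its own is uncertain.

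Other members of this list act on lipid droplets, on coenzyme A and on circulating lipids. Vnn1, a pantetheinase that releases a precursor of coenzyme A, gave 5.64, 2.76, 5.21 and 4.29 in fed mice and 8.66, 6.94, 7.15, 8.03 and 6.69 in fasted mice. Fed mouse 2 was the lowest, fasted mice 1 and 4 were the highest, and the groups were apart by 3.02 ± 0.47 on average (limma adjusted p = 0.000577). Plin2, a coat protein of lipid droplets, rose by 0.86 ± 0.13 (limma adjusted p = 0.000438). Acot1, a cytosolic acyl-CoA thioesterase, gave 3.75, 2.71, 4.11 and 3.34 in fed mice and 7.38, 6.02, 4.45, 6.03 and 5.31 in fasted mice. Fasted mouse 3, at 4.45, was only a little above fed mouse 3, at 4.11, and the mean rise was 2.36 ± 0.45 (limma adjusted p = 0.00266). Angptl4, a secreted inhibitor of lipoprotein lipase, gave 6.94, 6.85, 7.80 and 6.87 in fed mice and 8.68, 8.33, 8.40, 8.37 and 8.53 in fasted mice. Fed mouse 3 stood above the other fed mice but below all fasted mice, and the rise was 1.35 ± 0.19 (limma adjusted p = 0.000258). Acot1 gave 2.04 without the 4 arrays and was then not called (adjusted p = 0.0726).

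The 6 members that fell included Cyp4f14, a hydroxylase of leukotrienes and fatty acids, with 9.11, 8.96, 9.18 and 8.71 in fed mice and 6.79, 7.97, 8.16, 7.32 and 7.97 in fasted mice. Fasted mouse 1 was the lowest, and the difference was -1.35 ± 0.21 (limma adjusted p = 0.000675). Acsl4, an acyl-CoA synthetase that prefers arachidonic acid, fell by 0.82 ± 0.16 (limma adjusted p = 0.00374). Abhd5, the coactivator of the triglyceride lipase of lipid droplets, fell by 0.61 ± 0.11 (limma adjusted p = 0.00135). For Cd36, a fatty acid transporter that muscle also expresses, values were 5.86, 6.18, 6.27 and 7.11 in fed mice and 5.49, 5.48, 5.72, 5.52 and 5.40 in fasted mice. Fed mouse 4, with the highest muscle signal, was also the highest for Cd36, and the difference of -0.83 (limma adjusted p = 0.00595) became -0.51 (adjusted p = 0.064) without the 4 arrays. The part of muscle RNA in it was not tested beyond that fit. Acsl4 gave -0.77 without the 4 arrays and was then not called (adjusted p = 0.0556).

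Peroxisomes shorten very long and dicarboxylic fatty acids. Of 45 measured peroxisomal genes 18 rose and 3 fell, with a median of 0.28, and 14 and 1 were called without the 4 arrays. Crat, the carnitine acetyltransferase that exports acetyl units, gave 6.63, 6.62, 6.35 and 6.70 in fed mice and 8.57, 8.47, 8.10, 8.58 and 8.50 in fasted mice. The fasted mice spanned 0.48 and lay far above the fed mice, with a rise of 1.87 ± 0.12 (3.65-fold, limma adjusted p = 1.17e-07). Ehhadh, the bifunctional enzyme of the peroxisomal cycle, gave 8.63, 8.36, 8.56 and 8.41 in fed mice and 11.17, 10.36, 9.43, 10.48 and 9.74 in fasted mice. Its fed values were tight and its fasted values ran from 9.43 in mouse 3 to 11.17 in mouse 1, with a mean rise of 1.75 ± 0.26 (limma adjusted p = 0.000366). Pex11a, which promotes peroxisome division, rose by 1.44 ± 0.16 (limma adjusted p = 2.29e-05), again with fasted mouse 3 lowest of its group at 7.87.

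The thioesterases Acot3 and Acot4, which release free acids from acyl-CoA in peroxisomes, rose as well. Acot3 gave 2.79, 2.93, 2.56 and 2.83 in fed mice and 4.35, 5.23, 5.19, 5.59 and 5.18 in fasted mice. All fed values lay at or near the dim limit, so the rise of 2.33 ± 0.24 (limma adjusted p = 1.11e-05) may understate the change. For Acot4 the rise was 2.09 ± 0.21 (limma adjusted p = 1.1e-05), and signal may be shared within the Acot cluster. In the other direction, Nudt7, a peroxisomal hydrolase that breaks down coenzyme A, gave 10.40, 10.16, 10.22 and 10.05 in fed mice and 9.45, 8.44, 8.70, 8.60 and 8.22 in fasted mice. Its fasted values all lay below its fed values, highest in fasted mouse 1, and it fell by 1.52 ± 0.18 (limma adjusted p = 4.77e-05).

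Mitochondrial beta-oxidation followed the same direction, with a largest rise of 1.90 against 2.33 among the peroxisomal genes. There 16 of 30 measured genes rose and 3 fell, with a median of 0.31, and 8 and 3 were called without the 4 arrays. The carnitine route into the mitochondrion was represented at each step. Slc22a5, the carnitine importer of the plasma membrane, gave 5.34, 4.51, 4.91 and 4.70 in fed mice and 6.89, 6.73, 6.52, 7.06 and 6.61 in fasted mice. It rose in every fasted mouse above the highest fed mouse, by 1.90 ± 0.15 on average (3.73-fold, limma adjusted p = 1.09e-06). Cpt1a, the rate-limiting carnitine palmitoyltransferase of the outer membrane, gave 9.10, 8.65, 8.91 and 8.90 in fed mice and 10.45, 9.96, 10.35, 10.46 and 10.18 in fasted mice. The gap between the highest fed and the lowest fasted mouse was wide against the spread, and the rise was 1.39 ± 0.16 (2.62-fold, limma adjusted p = 5.01e-05). Slc25a20, the carnitine-acylcarnitine exchanger, rose by 1.13 ± 0.08 (limma adjusted p = 6.55e-07), and Cpt2, on the inner membrane, by 0.60 ± 0.12 (limma adjusted p = 0.00284).

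Within the oxidation cycle itself the rises were under 2-fold. Acadm, the medium-chain acyl-CoA dehydrogenase, gave 9.95, 10.02, 10.03 and 9.93 in fed mice and 10.73, 10.44, 10.44, 10.65 and 10.58 in fasted mice. The fed mice spanned 0.10 and the rise of 0.59 ± 0.07 was called (limma adjusted p = 7.39e-05). Hadhb, a subunit of the trifunctional protein, rose by 0.73 ± 0.12 (limma adjusted p = 0.000656), and Eci1, an enoyl-CoA isomerase, by 0.75 ± 0.15 (limma adjusted p = 0.00396), with fasted mouse 1 highest for both. Eci1 gave 0.73 without the 4 arrays and was then not called (adjusted p = 0.0695).

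The DR1 element, the site type that PPARs bind with RXR, was searched on both strands in its strict form, as 2 copies of AGGTCA with 1 unspecified base between them. It occurred in 0 of 44 promoter windows of the PPAR-regulated list, 0 of 42 of the peroxisomal list and 0 of 28 of the mitochondrial list, against 13 of 32851 (0.0396%) of all windows. No match says only that these exact letters are not in these windows.

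Of 9 measured genes of ketone body production and export 2 rose and 4 fell, with a median of -0.01 (1 and 3 without the 4 arrays). Slc16a7, a monocarboxylate transporter, gave 7.12, 7.07, 7.05 and 7.0 in fed mice and 8.03, 8.53, 8.67, 8.52 and 8.53 in fasted mice. Fasted mouse 1 was the lowest fasted mouse and still far above the fed mice, and the rise was 1.39 ± 0.12 (2.62-fold, limma adjusted p = 2.68e-06). Slc16a6, a monocarboxylate transporter linked to the export of hydroxybutyrate, gave 4.90, 4.76, 4.31 and 4.36 in fed mice and 3.62, 3.73, 3.81, 3.44 and 3.64 in fasted mice. It went the other way with no overlap, a difference of -0.94 ± 0.15 (limma adjusted p = 0.00068). Bdh1, which makes hydroxybutyrate, gave 0.34 ± 0.11 (limma adjusted p = 0.0574) and was not called. Aacs, the synthetase that returns acetoacetate to lipid synthesis in the cytosol, gave 7.51, 7.28, 6.78 and 5.77 in fed mice and 5.14, 5.50, 5.36, 4.72 and 5.68 in fasted mice. Fed mouse 4, at 5.77, was close to fasted mouse 5, at 5.68, and the difference was -1.56 ± 0.30 (limma adjusted p = 0.0028). Bdh2, a cytosolic dehydrogenase of the same family as Bdh1, fell by 1.29 ± 0.25 (limma adjusted p = 0.00307).

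Cholesterol synthesis fell along most of its pathway. Of 27 measured genes 17 fell and 3 rose, the list median was -0.97, and 15 and 2 were called without the 4 arrays. Genes along the pathway are given in the order of their reactions. Hmgcs1, the cytosolic synthase of hydroxymethylglutaryl-CoA, gave 9.64, 9.77, 9.39 and 8.81 in fed mice and 7.72, 7.30, 7.28, 7.76 and 7.61 in fasted mice. Fed mouse 4 was the lowest of the fed mice and still 1.05 above the highest fasted mouse, and the difference was -1.87 ± 0.18 (3.66-fold, limma adjusted p = 7.43e-06). Idi1, the isopentenyl diphosphate isomerase, gave 10.02, 9.59, 9.65 and 9.15 in fed mice and 8.15, 6.74, 7.74, 8.08 and 7.62 in fasted mice. Fasted mouse 2 was its lowest, and it fell by 1.94 ± 0.23 (limma adjusted p = 6.54e-05). Fdps, which makes farnesyl diphosphate, gave 8.96, 9.18, 9.21 and 8.82 in fed mice and 7.49, 6.71, 7.02, 7.44 and 7.51 in fasted mice. Here too fasted mouse 2 was lowest and no value overlapped, with a difference of -1.81 ± 0.16 (limma adjusted p = 2.03e-06). Sqle, the squalene epoxidase, gave 8.29, 8.24, 8.01 and 7.65 in fed mice and 6.45, 4.76, 6.01, 6.49 and 6.05 in fasted mice. In fasted mouse 2 it lay below the other fasted mice, and the difference was -2.10 ± 0.31 (limma adjusted p = 0.00042). Nsdhl, a dehydrogenase of the post-lanosterol steps, fell by 2.01 ± 0.18 (4.03-fold, limma adjusted p = 2.44e-06), from 8.27 or more in every fed mouse to 6.75 or less in every fasted mouse.

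The members that rose were Mylip, Npc1 and Insig2. Mylip, a ubiquitin ligase that limits the uptake of lipoproteins, gave 5.31, 5.53, 5.12 and 5.04 in fed mice and 6.18, 6.26, 6.23, 5.83 and 6.37 in fasted mice. All fasted mice were above all fed mice, by 0.92 ± 0.15 (limma adjusted p = 0.000679). Npc1, the lysosomal cholesterol exporter, rose by 0.63 ± 0.11 (limma adjusted p = 0.00146). Insig2, which holds SREBP in the endoplasmic reticulum, rose by 0.56 ± 0.14 (limma adjusted p = 0.0178), with overlapping groups. It was not called without fed mouse 2 (0.47, adjusted p = 0.0677), fed mouse 3 (0.56, 0.0504) or fed mouse 4 (0.51, 0.0576). Srebf2, which encodes the main regulator of the pathway, gave a difference of -0.27 ± 0.11 (limma adjusted p = 0.166), with overlapping groups. Rdh11, a retinol dehydrogenase outside the list, had the smallest adjusted p of all genes, with 7.46, 7.24, 7.68 and 7.11 in fed mice and 5.62, 5.48, 5.40, 5.55 and 5.42 in fasted mice. Its fasted mice spanned 0.22 and its difference was -1.88 ± 0.10 (3.68-fold, limma adjusted p = 3.71e-08). Insig2 gave 0.38 without the 4 arrays and was then not called (adjusted p = 0.307).

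Promoter windows of 250 bases before to 50 after the start were at hand for 22 of the 27 genes, as 28 windows, from RefSeq on GRCm38.p6. The letters CCAAT, searched on both strands, occurred in 21 of the 28 (75.0%), against 37.4% of 32851 windows of all genes. The sterol regulatory element searched as TCACNCCAC occurred in 1 (3.6%, against 1.24% of all windows), that of Hmgcs1. The 250 bases before the Hmgcs1 start, on the plus strand at chr13:119690101-119690350, are shown because they hold this element, in capitals, 137 bases before the start, in the gene that fell 3.66-fold.
Hmgcs1: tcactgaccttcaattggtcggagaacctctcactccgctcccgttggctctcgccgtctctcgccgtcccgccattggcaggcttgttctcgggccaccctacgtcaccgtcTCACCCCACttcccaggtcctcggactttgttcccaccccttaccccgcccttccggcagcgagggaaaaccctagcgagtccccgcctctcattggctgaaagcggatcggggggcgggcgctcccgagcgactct
A match of these letters is a description of the window and not a measured binding site.

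Of 36 measured genes of fatty acid and triglyceride synthesis 8 rose and 14 fell, with a median of -0.13 (4 and 12 without the 4 arrays). The falls were of enzymes that make, elongate or desaturate fatty acids and of their regulators. Fasn, the fatty acid synthase, gave 8.86, 9.01, 8.76 and 8.34 in fed mice and 6.85, 7.0, 6.88, 6.71 and 7.05 in fasted mice. Fed mouse 4 was the lowest fed mouse, the fasted mice lay within 0.34 of each other, and the difference was -1.85 ± 0.15 (3.59-fold, limma adjusted p = 1.09e-06). Acaca, the acetyl-CoA carboxylase that feeds it, gave 7.89, 7.77, 7.79 and 7.82 in fed mice and 6.40, 6.47, 6.71, 6.38 and 6.74 in fasted mice. Both groups were tight and the difference of -1.28 ± 0.10 had a limma adjusted p of 1.09e-06. Srebf1, which encodes the SREBP of lipogenesis, gave 7.67, 8.02, 7.67 and 7.38 in fed mice and 5.68, 6.15, 6.31, 5.68 and 6.42 in fasted mice. No fasted mouse came near the fed range, and the difference was -1.64 ± 0.20 (limma adjusted p = 6.6e-05). Scd1, the stearoyl-CoA desaturase, gave 11.43, 11.05, 11.12 and 10.97 in fed mice and 9.01, 9.88, 10.61, 8.39 and 8.91 in fasted mice. Its fasted values were scattered, from 8.39 in mouse 4 to 10.61 in mouse 3, below all fed values, and the difference was -1.78 ± 0.32 (limma adjusted p = 0.00169). Elovl3, an elongase that is higher in male liver, fell by 1.36 ± 0.21 (limma adjusted p = 0.000515), and Thrsp, a lipogenic regulator, by 1.68 ± 0.37 (limma adjusted p = 0.00821). Mid1ip1, a partner of acetyl-CoA carboxylase, fell by 1.60 ± 0.16 (limma adjusted p = 9.38e-06) in its brighter probe set, whereas a dimmer probe set of the gene gave 0.17.

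Of the 8 rises in this list 6 were of genes of triglyceride assembly, and the others were Fads2, a fatty acid desaturase, at 0.54 and Elovl2, an elongase, at 0.36. Lpin2, a phosphatidate phosphatase, gave 7.50, 7.49, 8.27 and 7.72 in fed mice and 9.24, 8.75, 9.14, 9.71 and 9.41 in fasted mice. Fed mouse 3 was the highest fed mouse and the rise was 1.50 ± 0.22 (limma adjusted p = 0.000366). Gpat4, which starts glycerolipid synthesis in the endoplasmic reticulum, rose by 0.68 ± 0.10 (limma adjusted p = 0.0003), from 7.66 to 7.87 in fed mice to 8.25 to 8.67 in fasted mice. The sterol regulatory element TCACNCCAC occurred in 1 of 39 promoter windows of the list (2.6%, against 1.24% of all windows), that of Mlxipl, which encodes ChREBP and fell by 0.84.

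Among 39 measured genes of phospholipid and sphingolipid metabolism 5 rose and 3 fell, with a median of 0.09 (5 and 1 without the 4 arrays). Mfsd2a, a transporter of lysophosphatidylcholine, gave 4.92, 5.12, 6.46 and 4.67 in fed mice and 9.05, 9.33, 8.89, 9.49 and 9.74 in fasted mice. Fed mouse 3 was above the other fed mice, the fasted mice were all at 8.89 or more, and the rise of 4.01 ± 0.46 (16.1-fold, limma adjusted p = 4.02e-05) was among the 5 largest of all genes. Chka, the choline kinase that starts phosphatidylcholine synthesis, gave 7.79, 6.85, 6.71 and 6.56 in fed mice and 5.18, 5.56, 5.18, 5.08 and 5.01 in fasted mice. Fed mouse 1 was the highest and the fasted mice were all lower than any fed mouse, a difference of -1.78 ± 0.26 (limma adjusted p = 0.00037). St3gal5, the sialyltransferase that starts ganglioside synthesis, was among the 15 largest rises, with 7.23, 7.45, 8.19 and 7.92 in fed mice and 10.28, 9.57, 9.84, 10.16 and 9.81 in fasted mice. The nearest mice of the groups were 1.38 apart, and the rise was 2.23 ± 0.22 (limma adjusted p = 9.01e-06).

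Lipoprotein genes moved in both directions, 6 of 28 rising and 4 falling around a median of 0.09 (3 and 2 without the 4 arrays). Angptl8, an insulin-responsive secreted inhibitor of lipoprotein lipase, gave 7.70, 6.60, 7.12 and 6.81 in fed mice and 4.78, 5.82, 5.13, 4.46 and 5.20 in fasted mice. Fasted mouse 2, at 5.82, was nearest to the fed mice, and the difference was -1.98 ± 0.36 (limma adjusted p = 0.00187). Lipg, endothelial lipase, gave 3.89, 4.12, 4.48 and 3.81 in fed mice and 5.84, 6.02, 5.37, 6.34 and 6.48 in fasted mice. It rose by 1.94 ± 0.23 with no overlap (limma adjusted p = 5.77e-05). Apoa5, which promotes triglyceride clearance, rose by 0.69 ± 0.11 (limma adjusted p = 0.000581), and Lcat, which esterifies cholesterol in plasma, by 0.58 ± 0.11 (limma adjusted p = 0.00219). Abca1, the exporter of cholesterol to nascent HDL, fell by 0.61 ± 0.12 (limma adjusted p = 0.00279), and Sort1, a sorting receptor, by 0.84 ± 0.18 (limma adjusted p = 0.00537). Apob, the structural protein of VLDL, gave 0.04 ± 0.06, and Mttp, which loads it with lipid, 0.25 ± 0.08 (limma adjusted p = 0.0749). For Lpl, lipoprotein lipase, which muscle expresses, the difference of -1.46 (limma adjusted p = 0.0127) became -0.81 (adjusted p = 0.104) without the 4 arrays, and fed mouse 4 was highest at 7.18. Abca1 gave -0.64 without the 4 arrays and was then not called (adjusted p = 0.0534).

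**Figure D3:**
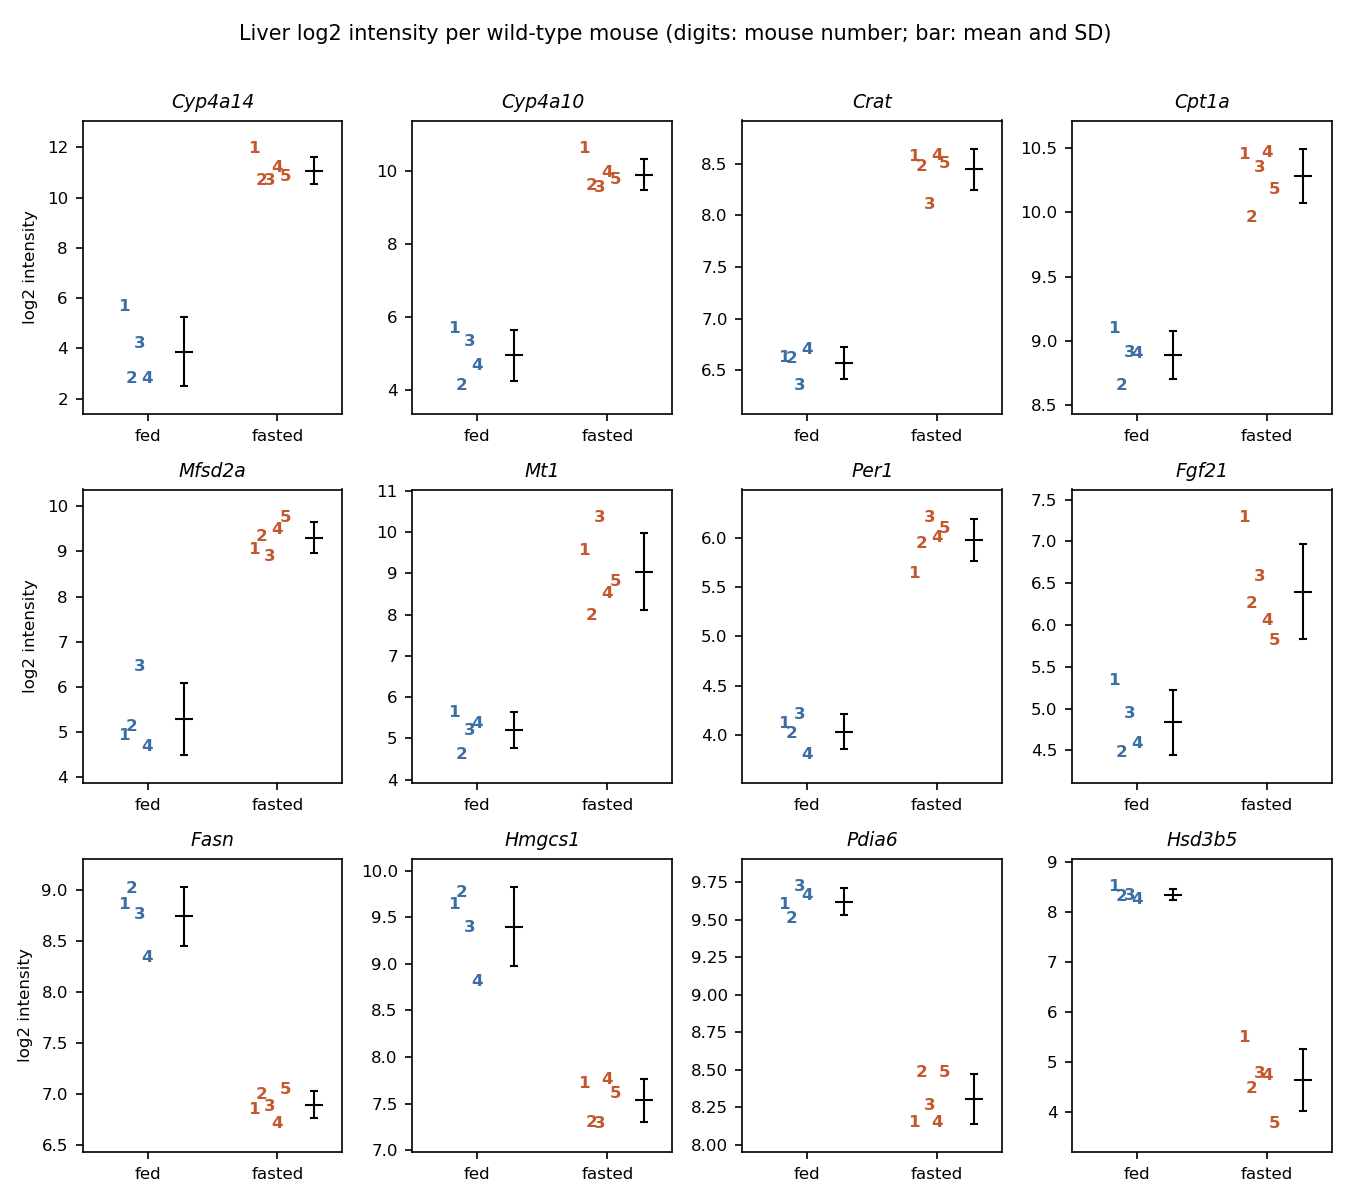
Log2 intensity in each wild-type mouse (digits give the mouse number) for 12 genes, with the mean and SD of each group as a bar. In all 12 genes the fed and the fasted mice do not overlap, and Cyp4a14 shows the widest spread among fed mice, from 2.81 to 5.67.

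Few genes of glucose breakdown changed. Of 36 measured genes of glycolysis and glucose uptake 1 rose and 4 fell, with a median of -0.08 (1 and 2 without the 4 arrays). Pklr, the liver pyruvate kinase, gave 8.94, 8.67, 8.71 and 8.49 in fed mice and 7.96, 7.79, 8.05, 7.17 and 8.51 in fasted mice. Fasted mouse 5 lay within the fed range and the other fasted mice below it, with a difference of -0.81 ± 0.19 (limma adjusted p = 0.0132). Slc2a2, the glucose transporter of hepatocytes, gave 0.04 ± 0.15 (limma adjusted p = 0.893). In the pentose phosphate pathway and NADPH supply 5 of 11 fell and 1 rose, with a median of -0.28 (4 and 1 without the 4 arrays). Pgd, the phosphogluconate dehydrogenase, gave 7.0, 6.99, 7.17 and 6.73 in fed mice and 6.38, 6.11, 6.17, 5.80 and 5.80 in fasted mice. The difference of -0.92 ± 0.13 left every fasted mouse below every fed mouse (limma adjusted p = 0.00024). Tkt, transketolase, fell by 0.54 ± 0.09 (limma adjusted p = 0.000978), and Idh1, the cytosolic isocitrate dehydrogenase, by 0.44 ± 0.08 (limma adjusted p = 0.00204). Nnt, the mitochondrial transhydrogenase that makes NADPH, gave 7.52, 6.78, 6.92 and 7.56 in fed mice and 8.23, 8.35, 8.37, 8.35 and 8.24 in fasted mice. Its fasted values lay within 0.14 of each other whereas fed mice 2 and 3 were lower than fed mice 1 and 4, and the rise was 1.11 ± 0.13 (limma adjusted p = 5.6e-05). The sources used here do not give the Nnt alleles of these mice of mixed background.

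Of 21 glycogen genes 7 fell and 2 rose, with a median of -0.15 (3 and 1 without the 4 arrays). Pygl, the liver glycogen phosphorylase, gave 9.75, 9.79, 9.88 and 9.69 in fed mice and 8.96, 9.33, 9.29, 8.86 and 9.29 in fasted mice. It fell in all fasted mice, by 0.63 ± 0.10 (limma adjusted p = 0.000498). Ppp1r3b, the liver subunit that targets phosphatase to glycogen, gave 7.41, 7.70, 7.94 and 7.53 in fed mice and 5.87, 6.71, 6.65, 6.63 and 7.48 in fasted mice. Fasted mouse 5, at 7.48, overlapped the fed mice, and the difference was -0.98 ± 0.23 (limma adjusted p = 0.0104). Gys2, the liver glycogen synthase, rose in contrast, with 8.95, 9.07, 9.06 and 9.0 in fed mice and 9.63, 9.42, 10.13, 9.99 and 9.61 in fasted mice. Fasted mice 3 and 4 were the highest, and the difference was 0.74 ± 0.14 (limma adjusted p = 0.00339).

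Gluconeogenesis and its regulators held 12 rises and 1 fall among 34 measured genes, with a median of 0.26 (6 and 1 without the 4 arrays). Pck1, which commits oxaloacetate to glucose, gave 9.95, 10.65, 10.79 and 10.68 in fed mice and 11.47, 11.29, 11.43, 11.41 and 11.39 in fasted mice. Fed mouse 1 was the lowest at 9.95, the fasted mice lay within 0.18 of each other, and the rise was 0.88 ± 0.14 (limma adjusted p = 0.000648). Pcx, pyruvate carboxylase, gave 8.86, 9.11, 9.15 and 8.87 in fed mice and 10.14, 9.65, 9.58, 9.62 and 9.63 in fasted mice. It rose by 0.73 ± 0.12, with fasted mouse 1 above the rest (limma adjusted p = 0.00108). Fbp1, fructose bisphosphatase, rose by 0.36 ± 0.07 (limma adjusted p = 0.00237), and Slc37a4, which carries glucose phosphate into the endoplasmic reticulum, by 0.71 ± 0.11 (limma adjusted p = 0.000675). G6pc, the glucose phosphatase of the last step, gave 10.81, 11.52, 11.30 and 10.68 in fed mice and 10.62, 11.03, 10.24, 10.57 and 10.61 in fasted mice. The groups overlapped, and the difference of -0.46 ± 0.22 (limma adjusted p = 0.231) was not called. Cebpb, a transcription factor of the fasting liver, rose by 0.99 ± 0.18 (limma adjusted p = 0.0021), and Hnf4a, a nuclear receptor of hepatocyte identity, by 0.56 ± 0.13 (limma adjusted p = 0.00929). Ppargc1a, the coactivator of the programme, gave 0.66 ± 0.29 (limma adjusted p = 0.179) with no overlap between groups. Mdh1, the cytosolic malate dehydrogenase, was the member that fell, by 0.33 ± 0.06 (limma adjusted p = 0.00334). Fbp1, Cebpb and Hnf4a gave 0.35, 0.74 and 0.57 without the 4 arrays and were then not called (adjusted p = 0.0604, 0.0879 and 0.113).

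Of 36 genes of insulin signalling and FOXO targets 5 rose and 3 fell, with a median of -0.05 (1 and 1 without the 4 arrays). Trib3, a pseudokinase that binds AKT, gave 3.92, 3.64, 4.42 and 4.01 in fed mice and 5.41, 4.49, 5.47, 5.10 and 5.14 in fasted mice. Fasted mouse 2 lay just above the highest fed mouse, and the rise was 1.12 ± 0.18 (limma adjusted p = 0.000871). Sesn2, an inhibitor of mTORC1 signalling, rose by 0.58 ± 0.14 (limma adjusted p = 0.0125). Among FOXO targets of the list Sesn3, a relative of Sesn2, fell by 0.61 ± 0.13 (limma adjusted p = 0.00726). Igfbp1, at -0.02 ± 0.20, and Irs2, at -0.23 ± 0.28, were not called (limma adjusted p = 0.963 and 0.664), and Insr, the insulin receptor, was at 0.11 ± 0.11. Trib3 and Sesn3 gave 0.94 and -0.60 without the 4 arrays and were then not called (adjusted p = 0.0528 and 0.0905).

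Glucocorticoid-induced genes and metallothioneins gave 10 rises and 2 falls among 26, with a median of 0.44 (4 and 1 without the 4 arrays). Fkbp5, a cochaperone of the glucocorticoid receptor, gave 5.91, 5.10, 5.71 and 5.06 in fed mice and 8.29, 7.06, 8.03, 8.08 and 8.37 in fasted mice. Fasted mouse 2 was the lowest fasted mouse, 1.15 above the highest fed mouse, and the rise was 2.52 ± 0.29 (5.74-fold, limma adjusted p = 3.61e-05). Mt1, a metal-binding metallothionein, gave 5.62, 4.60, 5.20 and 5.37 in fed mice and 9.56, 7.97, 10.34, 8.51 and 8.81 in fasted mice. The fasted mice ranged over 2.37, lowest in mouse 2 and highest in mouse 3, with a mean rise of 3.84 ± 0.82 (14.3-fold, limma adjusted p = 0.00617). Mt2 rose by 4.41 ± 1.17 (limma adjusted p = 0.0237) with the same order at its ends. Its call was lost without fed mouse 2 (4.37, adjusted p = 0.0547), fed mouse 3 (4.32, 0.0671) or fasted mouse 3 (3.93, 0.058), and with an intensity trend and robust variance (4.41, 0.0681). Slc30a10, a manganese exporter kept in this list with the metal genes, fell by 1.14 ± 0.17 (limma adjusted p = 0.000365). The pair of half-sites searched as ACANNNTGT on both strands was found in 5 of 30 promoter windows of the list (16.7%, against 6.85% of all windows), in 4 genes. Of these Mt1 rose, and Lcn2, Sgk1 and Tdo2 were not called. Mt1 and Mt2 gave 3.69 and 4.52 without the 4 arrays and were then not called (adjusted p = 0.114 and 0.179).

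The growth hormone, STAT5 and IGF1 axis gave 4 rises and 4 falls among 22 measured genes, with a median of -0.16 (0 and 1 without the 4 arrays). Igfbp2, a binding protein of IGF1, gave 9.27, 9.02, 9.04 and 8.87 in fed mice and 10.40, 9.73, 9.70, 9.84 and 9.38 in fasted mice. Fasted mouse 1 was the highest and mouse 5 the lowest fasted mouse, and the rise was 0.76 ± 0.17 (limma adjusted p = 0.00877). Egfr, the EGF receptor, which growth hormone maintains in liver, fell by 0.89 ± 0.19 (limma adjusted p = 0.00679). Igf1 itself gave 9.71, 9.35, 9.66 and 9.37 in fed mice and 9.72, 9.50, 9.58, 9.61 and 9.33 in fasted mice. The groups lay on top of each other, with a difference of 0.02 ± 0.10 (limma adjusted p = 0.921). Socs2, a feedback inhibitor that growth hormone pulses induce, ran from 4.70 to 8.45 over the 9 mice and gave -0.55 ± 0.62. Igfbp2 gave 0.76 without the 4 arrays and was then not called (adjusted p = 0.0676).

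Genes that are higher in male than in female mouse liver mostly fell among those called, and genes that are higher in females mostly rose. Of 28 measured male-biased genes 13 fell and 1 rose, with a median of -0.53, and 9 and 0 were called without the 4 arrays. Hsd3b5, a male-specific hydroxysteroid dehydrogenase, had the largest fall of all genes, with 8.50, 8.30, 8.33 and 8.24 in fed mice and 5.48, 4.47, 4.76, 4.73 and 3.76 in fasted mice. The fed mice lay within 0.26 of each other, the fasted mice ran from 3.76 in mouse 5 to 5.48 in mouse 1, and the difference was -3.70 ± 0.25 (13-fold, limma adjusted p = 2.39e-07). Cyp2u1, a fatty acid hydroxylase, fell by 1.26 ± 0.17 (limma adjusted p = 0.000206). Slco1a1, an organic anion importer of male liver, gave 10.30, 9.97, 10.50 and 10.17 in fed mice and 9.56, 9.44, 9.09, 9.43 and 9.24 in fasted mice. It fell by 0.88 ± 0.13 without overlap (limma adjusted p = 0.000366). Keg1, an acyltransferase-like gene, gave 9.30, 9.04, 9.74 and 8.86 in fed mice and 7.85, 7.29, 8.24, 7.03 and 7.55 in fasted mice. Its difference was -1.64 ± 0.21 (limma adjusted p = 0.000116). Hsd3b2, a relative of Hsd3b5 outside the list, gave 9.07, 8.73, 9.01 and 8.74 in fed mice and 6.28, 6.18, 6.65, 4.87 and 6.60 in fasted mice. Fasted mouse 4 was the lowest and the difference was -2.77 ± 0.38 (limma adjusted p = 0.000214), although probes of the Hsd3b family may share signal.

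Of 31 measured female-biased genes 10 rose and 1 fell, with a median of 0.08 (8 and 0 without the 4 arrays). Cyp17a1, a steroid hydroxylase and lyase, gave 4.35, 6.75, 4.21 and 5.32 in fed mice and 9.67, 7.29, 8.22, 8.48 and 6.05 in fasted mice. Fed mouse 2, at 6.75, lay above fasted mouse 5, at 6.05, so the groups overlapped around a rise of 2.79 ± 0.61 (limma adjusted p = 0.00726). Obp2a, a lipocalin, gave 4.18, 3.80, 4.74 and 3.33 in fed mice and 8.05, 7.61, 5.53, 5.97 and 7.13 in fasted mice. Fasted mice 3 and 4 were the lowest fasted mice, above every fed mouse, and the rise was 2.85 ± 0.58 (limma adjusted p = 0.00421). Fmo2, a flavin monooxygenase, gave 4.94, 4.60, 4.74 and 5.87 in fed mice and 6.19, 5.95, 7.25, 6.99 and 6.38 in fasted mice. Fed mouse 4 and fasted mouse 2 were nearly level, and the mean rise was 1.52 ± 0.28 (limma adjusted p = 0.00234). Cux2, a transcription factor of female liver, rose by 0.57 ± 0.11 (limma adjusted p = 0.00359). Cyp2b9, a defining female P450, stayed below the dim limit in every wild-type mouse, at 1.68 to 2.23. Cux2 gave 0.54 without the 4 arrays and was then not called (adjusted p = 0.082).

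Among 31 secreted regulators 5 rose and 5 fell, with a median of 0.02 (2 and 4 without the 4 arrays). Fgf21, a hormone of fasting, gave 5.34, 4.48, 4.94 and 4.58 in fed mice and 7.28, 6.26, 6.58, 6.05 and 5.81 in fasted mice. Mouse 1 was the highest of both groups, and fasted mouse 5, at 5.81, was nearest to the fed mice, with a rise of 1.56 ± 0.29 (2.95-fold, limma adjusted p = 0.00202). Serpina12, which encodes vaspin, gave 5.02, 6.48, 6.87 and 6.18 in fed mice and 4.50, 3.27, 3.29, 3.68 and 3.58 in fasted mice. Fed mouse 1 and fasted mouse 1 were the nearest pair, and the difference was -2.47 ± 0.38 (limma adjusted p = 0.000477). Inhba, a subunit of activin, fell by 1.80 ± 0.30 (limma adjusted p = 0.000941), and Lect2, a chemotactic hepatokine, by 0.51 ± 0.10 (limma adjusted p = 0.00344).

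Clock genes were among the most altered lists, with 10 of 26 rising and 4 falling around a median of 0.51 (9 and 2 without the 4 arrays). Period genes and output factors were among the rises, and the repressor Cry1 and the output factor Nfil3 were among the falls. Per1, a period gene, gave 4.12, 4.02, 4.21 and 3.80 in fed mice and 5.64, 5.94, 6.20, 6.00 and 6.09 in fasted mice. The fasted mice lay within 0.56 of each other and the rise was 1.94 ± 0.16 (3.83-fold, limma adjusted p = 1.47e-06). Dbp, an output transcription factor, gave 3.71, 3.93, 3.98 and 3.98 in fed mice and 6.22, 4.79, 7.65, 6.36 and 6.92 in fasted mice. The fed mice were nearly level and the fasted mice ran from 4.79 in mouse 2 to 7.65 in mouse 3, with a mean rise of 2.49 ± 0.40 (limma adjusted p = 0.00068). Ciart, a repressor of the clock, gave 2.26, 2.56, 2.59 and 2.23 in fed mice and 4.18, 3.12, 4.55, 4.45 and 5.38 in fasted mice. All fed values were below the dim limit, so the rise of 1.93 ± 0.37 (limma adjusted p = 0.00315) may understate the change. Usp2, a deubiquitinase, rose by 1.82 ± 0.24 (limma adjusted p = 0.000126), and Per3, whose fed values lay near the dim limit, by 1.39 ± 0.22 (limma adjusted p = 0.00057). Per2, another period gene, was not called, at 0.27. Fasted mouse 2 was the lowest fasted mouse for Dbp, Ciart and Per3.

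Both genes of the activator pair fell. Arntl, which encodes BMAL1, gave 6.08, 6.28, 6.35 and 6.25 in fed mice and 4.86, 5.41, 4.43, 4.48 and 4.45 in fasted mice. Fasted mouse 2 was the highest fasted mouse, below every fed mouse, and the difference was -1.52 ± 0.18 (2.86-fold, limma adjusted p = 6.99e-05). Clock, its partner, fell by 0.47 ± 0.09 (limma adjusted p = 0.00412). Cry1, a core repressor, fell by 1.07 ± 0.20 (limma adjusted p = 0.00248), and Nfil3, a repressor of the same target sites as Dbp, by 1.10 ± 0.27 (limma adjusted p = 0.0143). Nfil3 was not called without fed mouse 2 (-0.91, adjusted p = 0.0564). Nr1d1, a repressor of Arntl, gave 7.45, 6.15, 7.61 and 7.37 in fed mice and 7.96, 7.48, 8.18, 8.11 and 8.21 in fasted mice. Fed mouse 2 stood low at 6.15, the groups overlapped, and the difference of 0.84 ± 0.60 (limma adjusted p = 0.431) was not called. The sources used here do not say whether fed and fasted mice were killed at the same hour, so the hour and the fast cannot be told apart for these genes. Cry1 and Nfil3 gave -0.91 and -1.05 without the 4 arrays and were then not called (adjusted p = 0.0905 and 0.0727).

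The E-box searched as CACGTG, which reads alike on both strands, occurred in 7 of 31 promoter windows of the clock list (22.6%, against 7.15% of all windows), in 6 genes, of which Per1, Ciart and Tef rose, Cry1 fell and Bhlhe41 and Tspan4 were not called. The 250 bases before the start are shown for Per1 (chr11:69098699-69098948, plus strand) and Ciart (chr3:95882229-95882478, minus strand), both of which rose, with the E-boxes in capitals.
Per1: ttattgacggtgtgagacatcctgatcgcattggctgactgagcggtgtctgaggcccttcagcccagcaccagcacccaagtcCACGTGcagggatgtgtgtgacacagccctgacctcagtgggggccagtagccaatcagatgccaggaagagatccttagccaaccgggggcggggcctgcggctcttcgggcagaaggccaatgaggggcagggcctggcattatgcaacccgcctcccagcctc
Ciart: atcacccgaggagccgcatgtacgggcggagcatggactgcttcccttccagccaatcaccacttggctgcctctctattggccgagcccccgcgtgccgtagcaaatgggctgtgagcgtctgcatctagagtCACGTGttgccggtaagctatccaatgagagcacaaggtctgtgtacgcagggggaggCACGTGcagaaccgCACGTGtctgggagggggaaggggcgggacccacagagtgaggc
Per1 has 1 E-box 166 bases before the start, and Ciart has 3, from 116 to 44 bases before it.

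In amino acid catabolism 7 of 54 genes rose and 9 fell, with a median of 0.00 (5 and 4 without the 4 arrays). Mat1a, the methionine adenosyltransferase of liver, gave 11.10, 11.21, 10.85 and 11.10 in fed mice and 11.99, 11.82, 12.02, 11.99 and 11.85 in fasted mice. It rose by 0.87 ± 0.09, with no overlap (limma adjusted p = 1.18e-05). Oat, ornithine aminotransferase, gave 9.83, 9.77, 9.48 and 9.78 in fed mice and 10.16, 10.95, 10.88, 10.83 and 10.46 in fasted mice. Fasted mouse 1 was nearest to the fed mice, and the rise was 0.94 ± 0.14 (limma adjusted p = 0.000332). Gpt2, the mitochondrial alanine aminotransferase, rose by 0.85 ± 0.17 (limma adjusted p = 0.00328), although fasted mouse 2, at 8.52, overlapped fed mouse 2, at 8.59. Tat, tyrosine aminotransferase, gave 0.39 ± 0.13 (limma adjusted p = 0.0836) and was not called. Haao, an enzyme of tryptophan breakdown, fell by 0.53 ± 0.11 (limma adjusted p = 0.00394), and Mccc1, of leucine breakdown, by 0.60 ± 0.11 (limma adjusted p = 0.00178).

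Of 12 genes of the urea cycle and nitrogen disposal 3 rose and 1 fell, with a median of 0.04 (2 and 0 without the 4 arrays). Asl, argininosuccinate lyase, gave 8.95, 9.69, 9.38 and 9.41 in fed mice and 10.47, 10.47, 10.67, 10.49 and 10.20 in fasted mice. Fed mouse 1 was the lowest, and the rise was 1.10 ± 0.12 (2.15-fold, limma adjusted p = 3.44e-05). Slc25a13, the aspartate-glutamate carrier that feeds it, rose by 0.61 ± 0.08 (limma adjusted p = 0.000135), and Arg1, arginase, by 0.40 ± 0.09 (limma adjusted p = 0.0107). Cps1, the entry enzyme of the cycle, lay between 11.58 and 11.71 in all 9 mice, with a difference of 0.03 ± 0.06. Arg1 gave 0.46 without the 4 arrays and was then not called (adjusted p = 0.0594).

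Amino acid transporters gave 4 rises and 4 falls among 35, with a median of 0.10 (3 and 1 without the 4 arrays). Slc7a2, which imports arginine and lysine, gave 8.39, 9.37, 9.31 and 9.36 in fed mice and 9.94, 9.98, 10.18, 10.10 and 10.08 in fasted mice. Fed mouse 1, at 8.39, lay below the other fed mice, and the rise was 0.95 ± 0.18 (limma adjusted p = 0.00235). Slc25a22, a mitochondrial glutamate carrier, rose by 0.86 ± 0.15 (limma adjusted p = 0.00163), and Slc36a1, a lysosomal exporter, fell by 0.72 ± 0.16 (limma adjusted p = 0.00766). In serine, one-carbon and nucleotide synthesis 4 of 36 fell and 1 rose, with a median of -0.10 (2 and 0 without the 4 arrays). Among them Prps2, which makes phosphoribosyl pyrophosphate, fell by 0.86 ± 0.18 (limma adjusted p = 0.00544), and Rrm1, a ribonucleotide reductase subunit, by 0.66 ± 0.10 (limma adjusted p = 0.000498).

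Bile acid synthesis and transport gave 9 rises and 5 falls among 35, with a median of 0.08 (4 and 4 without the 4 arrays). Cyp8b1, the sterol hydroxylase that directs synthesis to cholic acid, gave 9.13, 10.06, 9.76 and 9.78 in fed mice and 10.70, 10.62, 10.64, 10.73 and 10.52 in fasted mice. The fasted mice lay within 0.21 of each other, above all fed mice, and the rise was 0.96 ± 0.18 (limma adjusted p = 0.00204). Cyp7a1, the rate-limiting enzyme of bile acid synthesis, gave 9.23, 9.47, 8.07 and 8.58 in fed mice and 9.83, 9.57, 9.66, 9.98 and 9.07 in fasted mice. The groups overlapped and the difference of 0.79 ± 0.34 (limma adjusted p = 0.179) was not called. Abcb11, the bile salt export pump, gave 10.67, 10.75, 10.93 and 10.85 in fed mice and 9.30, 10.26, 9.96, 10.08 and 10.12 in fasted mice. It fell by 0.85 ± 0.14, furthest in fasted mouse 1 (limma adjusted p = 0.00103). Abcb4, the phosphatidylcholine floppase of the same membrane, rose by 0.93 ± 0.12 (limma adjusted p = 0.000136). Slco1a4, an importer of organic anions, rose by 1.79 ± 0.25 (limma adjusted p = 0.00024). Atp8b1, a phospholipid flippase, fell by 1.06 ± 0.15 (limma adjusted p = 0.000276). Abcc3, an exporter of bile acids to blood, rose by 1.15 ± 0.24 (limma adjusted p = 0.00599), and its difference was 0.74 (adjusted p = 0.235) without the 4 arrays.

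Among 44 P450 genes of families 1 to 3 7 rose and 8 fell, with a median of -0.02 (1 and 7 without the 4 arrays). Cyp2c70, which hydroxylates bile acids to muricholic acids, lay between 10.81 and 11.15 in the 4 fed mice and was 9.18, 9.44, 9.82, 8.69 and 8.75 in fasted mice. The nearest mice of the groups were 0.99 apart, and the difference was -1.80 ± 0.18 (3.49-fold, limma adjusted p = 7.43e-06). Cyp2r1, a vitamin D hydroxylase, fell by 0.95 ± 0.15 (limma adjusted p = 0.000652), and Cyp2f2, a P450 of periportal cells, by 0.56 ± 0.09 (limma adjusted p = 0.000849). Cyp3a11, a major drug-metabolising P450, gave 10.41, 10.41, 10.49 and 10.53 in fed mice and 9.61, 10.79, 10.52, 10.54 and 10.52 in fasted mice. Fasted mouse 1 was low and the others lay between 10.41 and 10.79, with a difference of -0.07 ± 0.17 (limma adjusted p = 0.857).

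In phase 2 conjugation 6 of 46 rose and 6 fell, with a median of -0.05 (6 and 3 without the 4 arrays). The sulfotransferases Sult1a1 and Sult1d1 rose by 0.92 ± 0.15 and 0.86 ± 0.13 (limma adjusted p = 0.000965 and 0.00042), whereas Papss1, which makes their cofactor, fell by 0.83 ± 0.17 (limma adjusted p = 0.00457). The glutathione transferase Gstt2 rose by 1.12 ± 0.18 (limma adjusted p = 0.000891). Gstm6 and Gstm7 fell by 1.12 ± 0.23 and 0.73 ± 0.10 (limma adjusted p = 0.00412 and 0.00023), with probes that near-identical Gstm copies may share. Papss1 gave -0.79 without the 4 arrays and was then not called (adjusted p = 0.101).

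Nuclear receptors and cofactors gave 7 rises and 3 falls among 44, with a median of -0.02 (1 and 1 without the 4 arrays). Nr1i3, which encodes the xenobiotic receptor CAR, gave 8.31, 8.02, 8.26 and 8.36 in fed mice and 9.66 or more in every fasted mouse. Both groups were tight and 1.30 apart at their nearest mice, with a rise of 1.60 ± 0.19 (3.03-fold, limma adjusted p = 6.31e-05). Nr1i2, which encodes PXR, rose by 0.90 ± 0.15 (limma adjusted p = 0.00128). Nr1i2 gave 0.84 without the 4 arrays and was then not called (adjusted p = 0.0582).

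Acute phase proteins and their inducers gave 5 rises and 2 falls among 38, with a median of -0.02 (1 and 2 without the 4 arrays). Il6ra, a receptor chain for interleukin 6, gave 6.09, 6.55, 7.15 and 6.99 in fed mice and 7.35, 7.55, 8.17, 7.88 and 8.34 in fasted mice. Fed mice 3 and 4 came close to fasted mouse 1, and the rise was 1.17 ± 0.22 (limma adjusted p = 0.00286). The serum amyloid gene Saa1 ran from 2.32 to 5.19 in fasted mice and from 3.56 to 4.31 in fed mice, with a difference of -0.04 ± 0.84. The fibrinogen chains Fgb and Fgg fell by 0.31 ± 0.07 and 0.41 ± 0.08 (limma adjusted p = 0.0106 and 0.00493). Of 44 complement and coagulation genes 10 fell and 1 rose, with a median of -0.09 (8 and 1 without the 4 arrays). F11, coagulation factor XI, gave 8.06, 7.66, 8.41 and 7.99 in fed mice and 6.91, 6.81, 7.29, 7.06 and 7.11 in fasted mice. It fell by 0.99 ± 0.12 in a comparison without overlap (limma adjusted p = 8.95e-05). C8a, a chain of the membrane attack complex, fell by 0.67 ± 0.11 (limma adjusted p = 0.000675).

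Of 45 measured interferon-stimulated genes 17 fell and 0 rose in limma (0 were higher at an unadjusted p under 0.05), with a median of -0.37 (12 lower and 0 higher without the 4 arrays). Bst2, which tethers budding virus particles, gave 7.22, 7.29, 7.44 and 7.36 in fed mice and 6.23, 6.32, 6.35, 5.94 and 5.67 in fasted mice. Fasted mice 4 and 5 were the lowest, and the difference was -1.23 ± 0.14 (2.34-fold, limma adjusted p = 4.65e-05). Ifih1, a sensor of double-stranded RNA, gave 6.62, 6.78, 6.91 and 6.81 in fed mice and 5.94, 5.60, 6.10, 5.97 and 5.83 in fasted mice. The fed mice spanned 0.29 and no fasted mouse reached them, a difference of -0.90 ± 0.12 (limma adjusted p = 0.000205). Ifitm3, a membrane protein that blocks virus entry, fell by 0.86 ± 0.11 (limma adjusted p = 7.42e-05), and Herc6, a ligase for the ISG15 modifier, by 0.96 ± 0.15 (limma adjusted p = 0.000498). Irf7, a transcription factor of the response, gave 5.65, 5.45, 5.06 and 4.98 in fed mice and 4.48, 5.25, 5.20, 4.05 and 4.18 in fasted mice. Its groups overlapped, and the difference of -0.65 ± 0.24 (limma adjusted p = 0.107) was not called. Fasted mouse 3 had the highest score of the list among fasted mice, 0.03 against -0.28 to -0.19 in the others and 0.17 to 0.29 in fed mice, where a score is the mean over members of the log2 value minus the gene's mean over the 9 wild-type arrays.

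The interferon-stimulated response element searched on both strands as GAAA, 2 unspecified bases and GAAA, occurred in 16 of 39 promoter windows of these genes (41.0%, against 3.44% of all windows), in 15 genes of which 9 fell. The window of Bst2 (chr8:71537473-71537722, minus strand) is shown, since Bst2 fell most of the 17, with the elements in capitals.
Bst2: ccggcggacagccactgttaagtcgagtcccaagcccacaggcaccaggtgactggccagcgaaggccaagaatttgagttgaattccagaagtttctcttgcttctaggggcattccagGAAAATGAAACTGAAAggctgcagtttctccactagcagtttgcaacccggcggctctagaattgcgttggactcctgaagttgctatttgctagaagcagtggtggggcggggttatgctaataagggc
Its 2 matches overlap and begin 130 and 124 bases before the start. Of 19 genes of MHC class I and antigen processing 4 fell and 0 rose in limma (1 higher at an unadjusted p under 0.05), with a median of -0.15 (3 and 0 without the 4 arrays). Of the 4, Calr, Canx and Pdia3 are chaperones of the endoplasmic reticulum that the list of that organelle counts as well. H2-Q10, a secreted class I molecule of liver and the only other fall of the list, fell by 0.43 ± 0.09 (limma adjusted p = 0.00496). B2m, the light chain of class I molecules, gave 0.05 ± 0.07.

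Genes of the endoplasmic reticulum gave the most falls by number, in a long list. By share the list did not lead, with 41.9% of its members called against 74.1% for cholesterol synthesis. Without the 4 arrays cholesterol synthesis had more falls, at 15. Of 62 measured genes of chaperones, secretion and the unfolded protein response 25 fell and 1 rose, with a median of -0.29 (12 and 1 without the 4 arrays). Pdia6, a protein disulfide isomerase, gave 9.60, 9.51, 9.72 and 9.66 in fed mice and 8.15, 8.48, 8.26, 8.15 and 8.48 in fasted mice. The nearest mice of the groups were 1.03 apart, and the difference was -1.32 ± 0.11 (2.5-fold, limma adjusted p = 1.09e-06). Sdf2l1, a cofactor of the chaperone BiP, gave 6.92, 7.21, 6.96 and 6.99 in fed mice and 5.64, 6.00, 5.39, 5.53 and 5.59 in fasted mice. It fell by 1.39 ± 0.32 (limma adjusted p = 0.0104). Calr, the chaperone calreticulin, fell by 0.65 ± 0.10 (limma adjusted p = 0.00046), and Canx, calnexin, by 0.39 ± 0.07 (limma adjusted p = 0.00134). Ern1, the stress sensor IRE1, fell by 0.90 ± 0.15 (limma adjusted p = 0.000799), and Sec23b, a coat protein of vesicles that leave the organelle, by 0.65 ± 0.13 (limma adjusted p = 0.00339). Hspa5, which encodes BiP, gave 10.47, 10.57, 10.54 and 10.58 in fed mice and 10.10, 10.21, 10.16, 10.11 and 10.22 in fasted mice. Every fasted mouse was below every fed mouse, but the difference of -0.38 ± 0.14 (limma adjusted p = 0.109) was called only with the 2 wild-type groups alone (adjusted p = 0.0033) or without knockout fed mice 1 and 4 (0.0031). Herpud1, a factor of the degradation of misfolded proteins, was the member that rose, with 9.21, 9.11, 9.63 and 9.77 in fed mice and 9.96, 10.42, 10.86, 10.80 and 10.92 in fasted mice. The rise was 1.16 ± 0.20, lowest in fasted mouse 1 (limma adjusted p = 0.00136). Ddit3, a transcription factor of prolonged stress, gave 0.23 ± 0.18 (limma adjusted p = 0.472). Sdf2l1 and Sec23b gave -1.30 and -0.70 without the 4 arrays and were then not called (adjusted p = 0.155 and 0.0538).

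The endoplasmic reticulum stress response element, searched on both strands as CCAAT, 9 unspecified bases and CCACG and added after the list counts were seen, occurred in 10 of 54 promoter windows of the list (18.5%, against 0.119% of all windows). It contains the CCAAT letters, which alone occurred in 33 of the 54 (61.1%). Of the 10 genes 5 fell, and the window of Pdia6 (chr12:17266339-17266588, plus strand) is shown with the element in capitals.
Pdia6: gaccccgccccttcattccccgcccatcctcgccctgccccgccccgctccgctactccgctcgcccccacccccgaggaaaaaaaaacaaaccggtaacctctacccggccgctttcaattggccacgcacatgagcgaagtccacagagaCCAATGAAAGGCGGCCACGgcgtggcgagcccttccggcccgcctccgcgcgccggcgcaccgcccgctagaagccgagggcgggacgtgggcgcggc
The element begins 98 bases before the start.

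Proteasome subunits gave 1 rise and 3 falls among 37 (median -0.04, with 1 and 2 without the 4 arrays), with Psmd9, an assembly chaperone, at 0.72 ± 0.13 (limma adjusted p = 0.00167) and Psma4, a core subunit, at -0.48 ± 0.09 (limma adjusted p = 0.00194). Cytosolic heat shock genes gave 1 rise and 1 fall among 21, with a median of -0.18 and 0 and 0 without the 4 arrays. In autophagy and lysosome 5 of 52 rose and 2 fell (median 0.03, with 2 and 0 without the 4 arrays). Bnip3, a receptor of mitophagy, gave 8.23, 7.86, 7.85 and 7.81 in fed mice and 9.74, 9.37, 9.63, 9.47 and 9.25 in fasted mice. Fed mouse 1 was the highest fed mouse, 1.02 below the lowest fasted mouse, and the rise was 1.55 ± 0.12 (2.94-fold, limma adjusted p = 7.6e-07). Map1lc3b, which coats autophagosomes, rose by 0.64 ± 0.10 (limma adjusted p = 0.000438), and Ctsl, a lysosomal protease, by 0.41 ± 0.08 (limma adjusted p = 0.00202). Tfeb, the regulator of lysosome genes, gave 0.13 ± 0.09. Ctsl gave 0.40 without the 4 arrays and was then not called (adjusted p = 0.0593).

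Translation factors and tRNA synthetases gave 7 falls and 1 rise among 41, with a median of -0.08 (4 and 0 without the 4 arrays). Of all members 19.5% were called, against 9.22% of all genes, and 6 of the falls were of synthetases. However, 0 of the members lay under the dim limit. With dim genes left out of the fit 1932 of 11961 genes were called, a share nearer to that of the list. Tars, which charges threonine tRNA, gave 8.32, 8.20, 8.51 and 8.15 in fed mice and 7.52, 7.56, 7.32, 7.36 and 7.25 in fasted mice. The groups stood apart by -0.89 ± 0.08 (limma adjusted p = 3.61e-06). Cars, Yars and Nars, for cysteine, tyrosine and asparagine, differed by -0.65, -0.56 and -0.37 (limma adjusted p = 0.00163, 0.000384 and 0.00303). Ribosome biogenesis gave 2 rises and 1 fall among 51 (median -0.05, with 0 and 0 without the 4 arrays).

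The respiratory chain and ATP synthase, at 1 rise and 1 fall among 74 genes, had a median of -0.07 (0 and 0 without the 4 arrays), and both shares lay below those of all genes. Cox4i1, a subunit of cytochrome oxidase, gave 0.07 ± 0.06, and Sdha, of succinate dehydrogenase, -0.19 ± 0.07. In the tricarboxylic acid cycle 1 of 17 rose and 2 fell (median -0.02, with 1 and 0 without the 4 arrays). Cs, citrate synthase, gave 8.14, 8.11, 8.15 and 8.10 in fed mice and 7.89, 7.89, 7.68, 7.38 and 7.34 in fasted mice. The fed mice lay within 0.05 of each other, and the difference was -0.49 ± 0.11 (limma adjusted p = 0.0082). Cs gave -0.43 without the 4 arrays and was then not called (adjusted p = 0.0856).

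Cell cycle and DNA replication genes gave 3 rises and 5 falls among 43, with a median of 0.01 (2 and 2 without the 4 arrays). Gadd45b, a stress-induced gene, gave 3.91, 3.74, 3.54 and 3.62 in fed mice and 5.15, 5.87, 5.05, 5.48 and 4.71 in fasted mice. It rose by 1.55 ± 0.30 (limma adjusted p = 0.00302). The cyclins Ccnd3 and Ccnd2 moved in opposite directions, by 0.68 ± 0.12 and -0.58 ± 0.08 (limma adjusted p = 0.00208 and 0.00031), and Mki67, a marker of dividing cells, stayed below the dim limit in all 9 mice. Immediate early genes gave 1 rise, that of Gadd45b, and 0 falls in limma among 27 (1 lower at an unadjusted p under 0.05), with a median of -0.17 (1 and 0 without the 4 arrays). Fos gave 3.94, 5.21, 6.57 and 4.65 in fed mice and 3.48, 3.74, 3.89, 3.56 and 5.01 in fasted mice. The difference of -1.16 ± 0.60 (limma adjusted p = 0.264) was not called, with overlapping groups.

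Of 37 genes of NRF2, glutathione and redox 2 rose and 0 fell in limma (7 lower at an unadjusted p under 0.05), with a median of -0.01 (1 and 0 without the 4 arrays), and Cbr1, a carbonyl reductase, rose by 0.82 ± 0.13 (limma adjusted p = 0.000718). Iron handling and heme synthesis gave 5 rises and 5 falls among 36 (median 0.02, with 2 and 2 without the 4 arrays). Alas1, the rate-limiting enzyme of heme synthesis in liver, gave 8.98, 8.70, 8.30 and 7.68 in fed mice and 10.24, 9.88, 10.21, 10.52 and 10.70 in fasted mice. Fed mouse 4 was the lowest, the fasted mice were all at 9.88 or more, and the rise was 1.90 ± 0.30 (3.72-fold, limma adjusted p = 0.000612). Alad, the next enzyme of the path, fell by 0.65 ± 0.15 (limma adjusted p = 0.0097), and Abcb10, a mitochondrial transporter of the path, by 1.01 ± 0.11 (limma adjusted p = 2.36e-05). Hamp, the iron hormone hepcidin, gave 0.33 ± 0.22. Coenzyme A and NAD synthesis gave 9 rises and 5 falls among 29 (median 0.10, with 6 and 3 without the 4 arrays). Pank1, which starts coenzyme A synthesis, rose by 0.52 ± 0.08 (limma adjusted p = 0.000545), while Nudt7, which degrades the product, fell as given above. Nampt, which salvages nicotinamide, rose by 0.69 ± 0.11 (limma adjusted p = 0.000997), and Qprt, which makes NAD from tryptophan, fell by 0.64 ± 0.11 (limma adjusted p = 0.00143). Alad gave -0.47 without the 4 arrays and was then not called (adjusted p = 0.177).

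Among cell type markers, hepatocyte lists held larger shares of called genes than the 9.22% of all genes. So did the lists of cholangiocytes (27.3%), erythroid cells (16.7%, which is 1 of 6 markers), endothelium (12.5%) and stellate cells and fibroblasts (11.1%). The lists of Kupffer cells, T and NK cells, B and plasma cells and neutrophils held none. However, the share of all genes includes dim genes, whereas 0 of 24 endothelial and 3 of 27 stellate and fibroblast markers lay under the dim limit. With dim genes left out of the fit 1932 of 11961 genes were called, a larger share than in either of these 2 lists. Most markers of T and NK cells, B and plasma cells and neutrophils were dim, as given above. Of 12 hepatocyte markers 2 rose and 1 fell, with a median of 0.02 (0 and 1 without the 4 arrays). The 12 periportal markers gave 4 rises and 2 falls and the 17 pericentral ones 4 and 0, with medians of 0.03 and 0.05 (1 and 2, and 2 and 0, without the 4 arrays). The shares called were 23.5% of pericentral and 25.0% of hepatocyte markers and larger still for periportal ones, and the periportal and pericentral rises included Pck1, Arg1 and Oat, metabolic genes that stand in other lists as well. Lhpp, a phosphatase of pericentral cells, rose by 1.10 ± 0.17 (limma adjusted p = 0.000667), and Glul, the defining glutamine synthetase of these cells, gave -0.09 ± 0.09. For Kupffer cells none of 23 markers was called in limma (1 higher and 4 lower at an unadjusted p under 0.05), with Clec4f at -0.13 ± 0.11 and a median of -0.05. Of 24 endothelial markers 3 fell (median -0.11), of 27 stellate and fibroblast markers 3 (median -0.13) and of 11 cholangiocyte markers 3 (median -0.17), and none rose in limma (1, 0 and 0 higher at an unadjusted p under 0.05). Without the 4 arrays 1 of each of these lists fell. Cdh1, which encodes E-cadherin and is expressed by hepatocytes as well, gave 7.11, 7.30, 7.27 and 7.18 in fed mice and 6.69, 6.30, 5.89, 5.87 and 4.86 in fasted mice. Fasted mouse 5 was the lowest and the difference was -1.30 ± 0.24 (limma adjusted p = 0.00201). Krt19, the defining keratin of bile ducts, gave -0.44 ± 0.19, and Epcam -0.08 ± 0.12. Lum, a collagen-binding proteoglycan of fibroblasts, fell by 0.61 ± 0.14 (limma adjusted p = 0.00892) and gave -0.49 (adjusted p = 0.108) without the 4 arrays, and fed mouse 4 was highest at 5.22. Of 12 adipocyte markers 1 fell and of 6 erythroid markers 1, with Adipoq below the dim limit in every mouse. No marker of T and NK cells, B and plasma cells, neutrophils or pancreas was called in limma (at an unadjusted p under 0.05, in turn, 4, 0, 1 and 2 higher and 0, 0, 0 and 0 lower), at medians of 0.07, 0.02, 0.07 and 0.50. The added skeletal muscle list, with a median of -1.54, and the squamous one, with -0.17, held no called gene in limma (10 and 0 lower at an unadjusted p under 0.05), and the muscle median was 0.08 without the 4 arrays.

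Of the called genes 1422 were in none of the lists. Rab30, a small GTPase, gave 3.69, 3.34, 3.61 and 3.42 in fed mice and 7.01, 6.49, 6.54, 6.93 and 5.88 in fasted mice. The nearest mice of the groups were 2.19 apart, and the rise of 3.05 ± 0.27 (8.31-fold, limma adjusted p = 2.44e-06) was the 7th largest. Slc16a5, a monocarboxylate transporter, gave 3.09, 2.88, 2.67 and 2.75 in fed mice and 6.19, 5.45, 5.85, 5.94 and 4.99 in fasted mice. Its fed values lay at or near the dim limit, so the rise of 2.84 ± 0.21 (limma adjusted p = 6.55e-07) may understate the change. Serpina4-ps1, a serpin pseudogene, gave 10.68, 9.80, 9.45 and 8.82 in fed mice and 7.29, 5.92, 5.67, 5.61 and 5.84 in fasted mice. Fed mouse 1 and fasted mouse 1 were the highest of their groups, and the difference was -3.62 ± 0.37 (12.3-fold, limma adjusted p = 1.35e-05). Fabp5, a fatty acid binding protein, gave 7.38, 5.93, 7.10 and 6.09 in fed mice and 5.55, 3.20, 3.50, 3.25 and 3.48 in fasted mice. Fasted mouse 1, at 5.55, was above the other fasted mice, which reached 3.50, and close to fed mouse 2, and the difference was -2.83 ± 0.44 (limma adjusted p = 0.00057).

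Membrane and plasma proteins made up other large falls. Slc41a2, a magnesium transporter, gave 6.66, 6.77, 7.15 and 7.02 in fed mice and 4.38, 4.21, 4.64, 4.00 and 4.21 in fasted mice. It fell by 2.61 ± 0.29 (6.12-fold, limma adjusted p = 3.02e-05). Aqp8, a water channel of the bile canaliculus, gave 8.72, 9.0, 9.25 and 8.50 in fed mice and 6.12, 6.48, 6.24, 5.84 and 7.07 in fasted mice. Fasted mouse 5 was the nearest to the fed mice, and the difference was -2.52 ± 0.23 (5.73-fold, limma adjusted p = 2.68e-06). Serpina7, which encodes thyroxine-binding globulin, fell by 2.27 ± 0.34 (limma adjusted p = 0.000438), and Efna1, an ephrin, by 1.93 ± 0.24 (limma adjusted p = 8.19e-05). Cmtm6, a membrane protein that stabilises PD-L1 and was named after its values were seen for its small spread, gave 8.74, 8.71, 8.66 and 8.69 in fed mice and 7.31, 7.34, 7.31, 7.36 and 7.42 in fasted mice. Its fed mice lay within 0.08 and its fasted mice within 0.11 of each other, with a difference of -1.35 ± 0.08 (limma adjusted p = 1.17e-07).

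Mice of a group were alike for most genes. Over the 11961 genes above the dim limit the median SD was 0.138 among fed and 0.159 among fasted mice. The largest SDs among fed mice were those of muscle and squamous genes, Atp2a1 at 3.08 and Krt13 at 3.04, which were bright in the same arrays as the marker lists of those tissues. Among fasted mice the largest were those of Moxd1 (2.65), Cyp2c39 (1.93), the pancreas gene Cpa1 (1.77) and Rgs16 (1.68). These genes and those of the next paragraph were chosen for their spread, which is given with no test.

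Fasted mouse 1 stood apart for several genes. Moxd1, a monooxygenase-like gene, gave 8.39 here, against 2.26 to 2.94 in fasted mice 2 to 5. Cidec, which enlarges lipid droplets, gave 6.98 against 3.61 to 4.61. Asns, asparagine synthetase, gave 8.15 against 5.31 to 6.03. In the other direction Inmt, a methyltransferase, gave 6.18 against 8.19 to 9.55, and Car3, a carbonic anhydrase, 8.48 against 10.70 to 11.44. The score of the male-biased list was 0.18 in fasted mouse 1, within the fed range of 0.18 to 0.42, and -0.49 to -0.32 in the other fasted mice. Other splits crossed the group differently. Cyp2c39, an arachidonic acid epoxygenase, was low in fasted mice 3 and 5, at 6.02 and 6.15, against 8.74 to 9.88 in the other fasted mice and 7.86 to 9.38 in fed mice. Rgs16, a regulator of G protein signalling, was high in the same 2 mice, at 9.57 and 9.47, against 5.76 to 7.78.

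**Figure D4:**
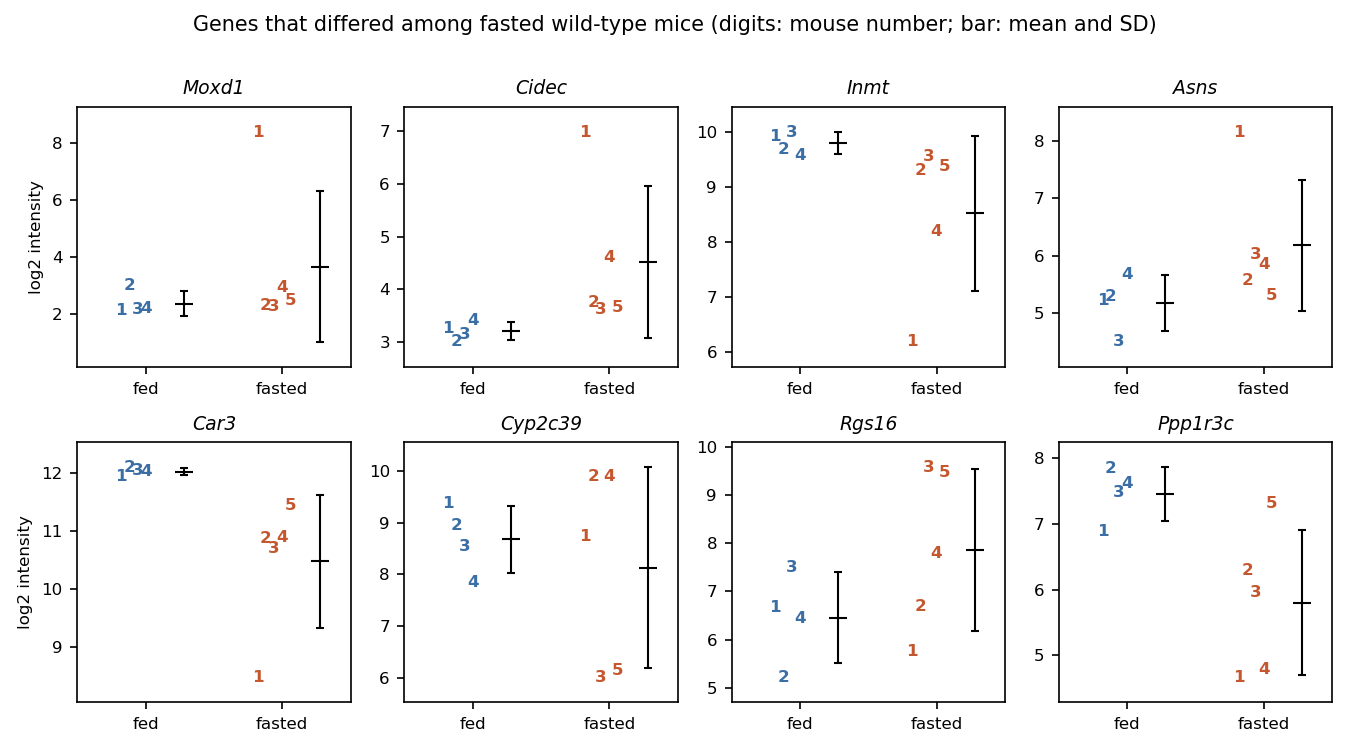
Log2 intensity in each wild-type mouse (digits give the mouse number) for 8 genes chosen for their spread among fasted mice, with the mean and SD of each group as a bar. Fasted mouse 1 lies alone for Moxd1, Cidec, Inmt, Asns and Car3, and fasted mice 3 and 5 lie together for Cyp2c39 and Rgs16.

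The response of wild-type mice was compared with that of the knockout mice through the difference of the responses, tested in the same fit. Of the 1838 genes called in wild-type liver 1554 had the same sign in knockout liver, where 3.67% of all genes were called with 4 fed and 3 fasted mice. The test of the difference called 2 genes (0.01%). Of all 19935 genes 2441 had an unadjusted p under 0.05. That is a larger share than the 0.05 that such a limit gives on average where no gene differs. Hsd3b5 fell by 3.70 in wild-type and by 0.99 in knockout liver, a difference of 2.72 ± 0.38 (limma adjusted p = 0.0284). Tc2n, a gene whose values were below the dim limit in wild-type mice, gave -0.39 in wild-type and 0.56 in knockout liver, a difference of 0.95 ± 0.14 (limma adjusted p = 0.0284). The number of genes called in this test was small under every setting, at 7 without fed mouse 1, 8 without knockout fed mouse 3, 5 without knockout fed mouse 2 and 5 without the 4 arrays. It was 1 without fasted mouse 1 or knockout fed mouse 1 and 0 without fed mouse 3, fed mouse 4, fasted mouse 3, fasted mouse 4, knockout fed mouse 4 or any of the knockout fasted mice. The gene called without knockout fed mouse 1 had a negative difference, so neither Hsd3b5 nor Tc2n was called there. Other genes with large changes in wild-type liver did not pass this test. The knockout response was 4.93 for Cyp4a14, 2.23 for Mfsd2a and 0.75 for Mt1, with adjusted p for the difference of 0.342, 0.326 and 0.34. For Alas1 it was -0.21, for Hsd3b2 0.17 and for Serpina12 0.43, with adjusted p of 0.15, 0.15 and 0.15. An adjusted p above the threshold does not show that the responses were alike.

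**Figure D5:**
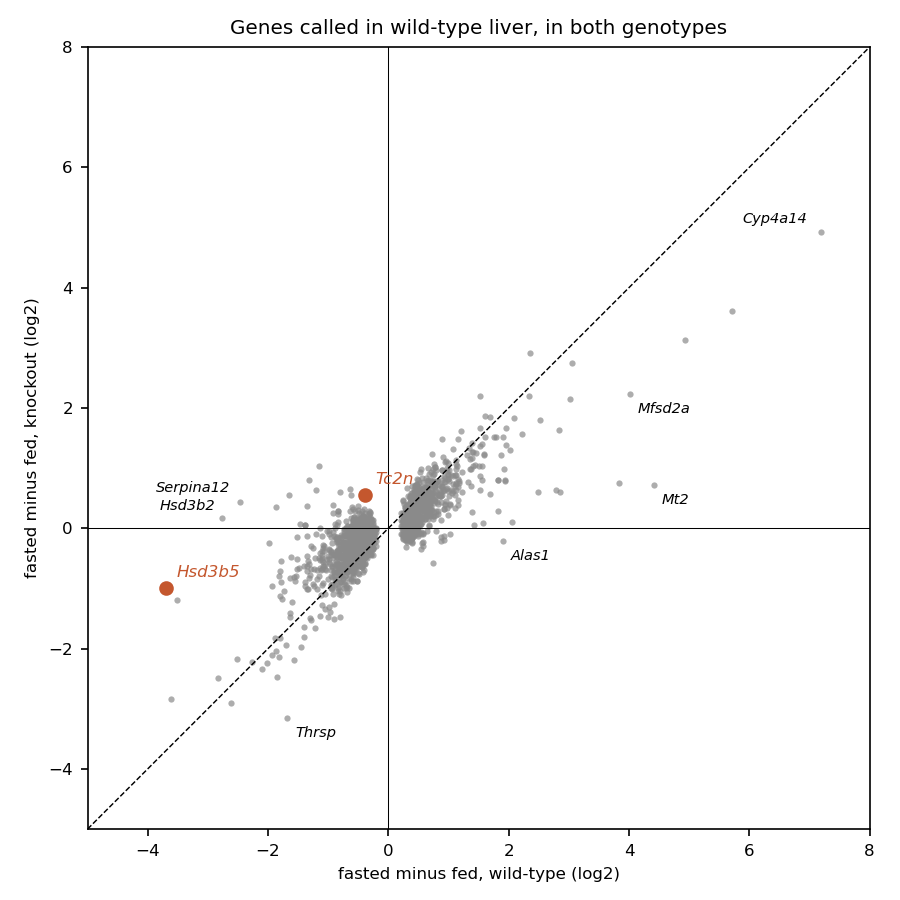
Fasted minus fed difference (log2) in wild-type liver (horizontal) and in knockout liver (vertical) for the 1838 genes called in wild-type liver, 1 point per gene, with the line of equal response dashed. Of these genes 1554 have the same sign in both genotypes, and Hsd3b5 and Tc2n, in colour, are the 2 genes whose responses differed in limma.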

How the data were processed

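Total liver RNA of 16 mice was hybridised to Affymetrix arrays, 1 array per mouse. The deposited values are linear intensities per probe set after RMA, per the submitters' processing notes, which give no version here, and their log2 was taken. Of 35519 probe sets 21780 had 1 gene symbol in the platform annotation, 1605 had several and 12134 had none, and only the first were named. Each of 19935 genes was represented by its brightest probe set (998 genes had several). Array medians of the intensity lay between 8.08 and 8.61, no value was missing and no 2 arrays were identical. Each array counted as 1 replicate, and nothing says that mice came from separate litters.

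limma 3.58.1 in R 4.3.3 was fitted to 4 group means over the 16 arrays (12 residual and 4.55 prior degrees of freedom), with two-sided tests and Benjamini-Hochberg adjustment over all genes. The fit was tested on simulated data. Genes were named by rule: Ppard, Ppara and Pparg, the 15 largest rises and falls without overlap, from each list the 5 largest called changes each way and key genes, and up to 8 each way that differed between genotypes. Not every gene so named is described. The lists, the genes and the comparison were chosen with earlier results of these data known. Alternatives were quantile normalization, centring, other uses of probe sets, a filter on dim genes, other variance models, array weights, a replicate block, only the wild-type groups and leaving out arrays. Promoter sequences came from RefSeq (GRCm38.p6), matched by gene symbol. Probe sets not named and genes not in the annotation used were not analysed here.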

Additional observations from a re-analysis of the deposited data

Results flagged for a closer look

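Of 550 groups of 4 or 5 mice tested, for the named genes and the list scores in fed and in fasted wild-type mice, 34 held a mouse far from the others of its group by Dixon's criterion, and chance sets apart about 1 in 20 groups. No cause was tested for any of them.

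Fasted mouse 1 stood apart for Cyp3a11 (9.61, against 10.52 to 10.79 in the other fasted mice), Eci1 (9.50, against 8.70 to 8.85), Fabp5 (5.55, against 3.20 to 3.50), Fbp1 (11.41, against 11.60 to 11.67), Pcx (10.14, against 9.58 to 9.65), Serpina4-ps1 (7.29, against 5.61 to 5.92) and Slc16a7 (8.03, against 8.52 to 8.67). Its scores were apart for the male-biased list (0.18, against -0.49 to -0.32) and for bile acid genes (-0.06, against 0.06 to 0.09). Fasted mouse 2 was low for Fkbp5 (7.06, against 8.03 to 8.37), Nampt (6.95, against 7.28 to 7.40) and Sqle (4.76, against 6.01 to 6.49). Fasted mouse 3 was low for Crat (8.10, against 8.47 to 8.58), high for Slc37a4 (9.84, against 9.52 to 9.58) and high in the interferon score (0.03, against -0.28 to -0.19). Fasted mouse 4 was low for Hsd3b2 (4.87, against 6.18 to 6.65) and Rrm1 (4.31, against 4.56 to 4.65). Fasted mouse 5 was high for Fos (5.01, against 3.48 to 3.89) and in the pancreas score (1.79, against -0.33 to 0.10).

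Among fed mice, mouse 1 was high for Bnip3 (8.23, against 7.81 to 7.86) and low for Pck1 (9.95, against 10.65 to 10.79) and Slc7a2 (8.39, against 9.31 to 9.37). Fed mouse 2 was low for Nr1d1 (6.15, against 7.37 to 7.61). Fed mouse 3 was high for Angptl4 (7.80, against 6.85 to 6.94) and Idh1 (10.58, against 10.35 to 10.37) and low for Oat (9.48, against 9.77 to 9.83). Its scores were high for glucocorticoid-induced genes (-0.27, against -0.50 to -0.47), bile acid genes (0.03, against -0.10 to -0.08) and P450 genes (0.19, against -0.04 to -0.01). Fed mouse 4 was low for Tkt (7.22, against 7.48 to 7.52) and Yars (6.31, against 6.50 to 6.52). Its scores were high for heat shock genes (0.17, against 0.04 to 0.06), neutrophil markers (0.05, against -0.07 to -0.05) and squamous epithelium (1.52, against -0.27 to -0.25).

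The responses of the genotypes differed in limma for Hsd3b5 (knockout minus wild-type response 2.72) and Tc2n (0.95).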

How the results depend on the processing

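The 1838 genes of the main fit became 833 without the 4 arrays with muscle or pancreas transcripts, an alternative chosen after seeing the data, and 1199 to 1675 when single wild-type arrays were left out, lowest without fed mouse 3. Quantile normalization gave 847 higher and 974 lower, and centring gave 496 higher and 1265 lower. The test between genotypes, with 2 genes, gave 1 without dim genes, with all probe sets, with an intensity trend and robust variance, with the replicate block or without knockout fed mice 1 and 4 together, 5 without the 4 arrays and 0 to 8 when single arrays were left out. Without knockout fed mice 1 and 4 together the 1 gene called had a negative difference, so neither of the 2 genes of the main fit was called there. Of the 2, Hsd3b5 ran from 2.31 to 2.93 and Tc2n from 0.87 to 1.10 over the alternatives. No label says that a number pairs mice, so the replicate block, with 1656 genes, is not used as pairing. Deviations of fed and fasted mice of the same number had correlations of 0.079 to 0.118. Of the fed mice 2 of 4 were closest to the fasted mouse of their own number. These values do not settle whether mice were paired.

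None of the 184 named genes that were called changed sign under any alternative, and 154 kept their call under every one. The alternatives refit the arrays from which these genes were called, or a part of them, so kept signs were likely beforehand. Among the 32 that were not called, 10 changed sign. Cps1 was -0.04 after quantile normalization and -0.01 after centring, and Igf1 was -0.01 after centring. Slc2a2 was -0.00 with array weights and -0.04 with the replicate block. Without the 4 arrays Apob was -0.02, Glul 0.01, Igf1 -0.08 and Slc2a2 -0.07. When single arrays were left out, Igf1 ran from -0.03 to 0.09, Igfbp1 from -0.20 to 0.17, Irs2 from -0.37 to 0.03, Saa1 from -0.39 to 0.33, Epcam from -0.16 to 0.06, Cyp3a11 from -0.17 to 0.13 and Slc2a2 from -0.04 to 0.13. The cause of these changes was not tested. The number of arrays limits the precision, and genes near the dim limit have little signal over background.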
